A study of Cucurbita pepo with 23 samples.

Results

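Nectaries of female flowers of squash (*Cucurbita pepo*) were compared between −15 hr, the last timepoint before nectar appeared, and 0 hr, full anthesis, when the open flowers were secreting. The comparison was defined by sex and stage, not by expression, and took 5 of the 23 libraries of the series: 3 of female nectaries at 0 hr and 2 of female nectaries at −15 hr. Each library holds a normalized number of reads for the same 8861 melon genes, and all 8861 were tested. The plants of both groups were Crookneck Yellow Squash, with no treatment, no introduced allele and no stated age. Nectaries were dissected by hand from closed buds with a slightly unfurled corolla tip at −15 hr and from open flowers in the morning at 0 hr, so stage and time of day changed together and cannot be told apart. The labels give the earlier timepoint as −12 hr, and the hours of the study's text are used here. Libraries of a group are nowhere said to be separate plants, so the p-values may measure only technical spread.

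A nectary is a gland of the flower that stores sugar, often as starch, and releases it as nectar around anthesis. Work in Arabidopsis has given a model in which the sugar of nectar is made as sucrose inside the gland, largely from stored starch, with sucrose-phosphate synthase as a key enzyme. The membrane carrier SWEET9 then lets the sucrose out of the cell. Outside the cell a cell-wall invertase can split it into glucose and fructose, and water follows the sugar across membranes, partly through aquaporins. Squash nectar is known as rich in sucrose.

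The sums over genes were 13977610 and 15113608 normalized reads in the −15 hr libraries and 14809893 to 15912944 in the 0 hr libraries. The values are scaled and are not counts of reads, so the depth of each library is unknown. Pearson's correlation of log2 values across genes was 0.96 between the −15 hr libraries and 0.958 to 0.971 among the 0 hr libraries, and 0.626 to 0.669 between the stages. These correlations run across genes, which are not independent replicates. Of 4 nectary markers listed, 2 had high values at both stages, and none was called in the fit of all 23 libraries. The NEC1-like sugar transporter (XM_008443590.1, named SWEET9 in the study's primer list) had 188998 to 292544 normalized reads at −15 hr and 269060 to 356879 at 0 hr. The nectary regulator MYB305 (XM_008445303.1) had 48362 to 58835 and 90598 to 104104. A further gene with a similar description was at 0 or 1 in each of the 5 libraries compared, but averaged 487 (SD 424) in female nectaries at +9 hr. SHI RELATED SEQUENCE 1 (XM_008457037.1), named for a family of regulators of floral organs, was lower at 0 hr in every library, with 856 and 924 at −15 hr and 462, 395 and 410 at 0 hr (log2 change of −1.08, adjusted p = 0.373). It was called with the 5 libraries fitted alone (adjusted p = 0.00292) and with the 11 female libraries (adjusted p = 0.0455).

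Between the timepoints, 51.6% of the genes tested passed both limits used here, a change of at least 2-fold and an adjusted p (limma, Benjamini-Hochberg over all genes) under 0.05, and 48.4% did not. Such genes are called below, and "rose" and "fell" are used only of called genes. Those called higher at 0 hr were 1817 (20.5%) and those called lower were 2754 (31.1%), the background against which the counts of each gene group are given. Without regard to the test, all 3 libraries at 0 hr lay above both at −15 hr in 31.8% of genes and below both in 45.9%. A lack of overlap alone therefore sets no gene apart. All changes are log2 fold changes on the scale of normalized reads plus 1, which understates the change of genes with low values. Increases were fewer but larger: 446 genes rose and 122 fell by at least 16-fold, and 56 rose and 2 fell by at least 256-fold. The median log2 fold change was 2.40 among genes called higher and −1.87 among genes called lower. In the 0 hr libraries, the genes called higher held 43.2 to 48.0% of the summed values, against 8.46 and 8.49% at −15 hr. Genes called lower held 8.19 to 11.3% at 0 hr, against 40.7 and 42.2% at −15 hr.

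The balance of both directions depends on the scaling. Over all genes the median log2 fold change was −0.30 with the authors' upper-quartile scaling, and 0.01 after the libraries were scaled by the median of ratios, a shift of 0.32. With that scaling 2265 genes were called higher and 2131 lower, so that 51.5% of the calls were higher, in place of 39.8%. Counts of gene groups with that scaling stand against these totals out of 8861, not against 20.5 and 31.1%. Counts with a library left out stand against the totals of those fits, given near the end. Of the called genes, 53 that were higher were listed at 0 in both −15 hr libraries and 1 that was lower was listed at 0 in all 3 at 0 hr. No fold change is given for a gene whose group was listed at 0. In these whole-organ samples, fewer cells of a type and less RNA per cell cannot be told apart.

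**Figure D1:**
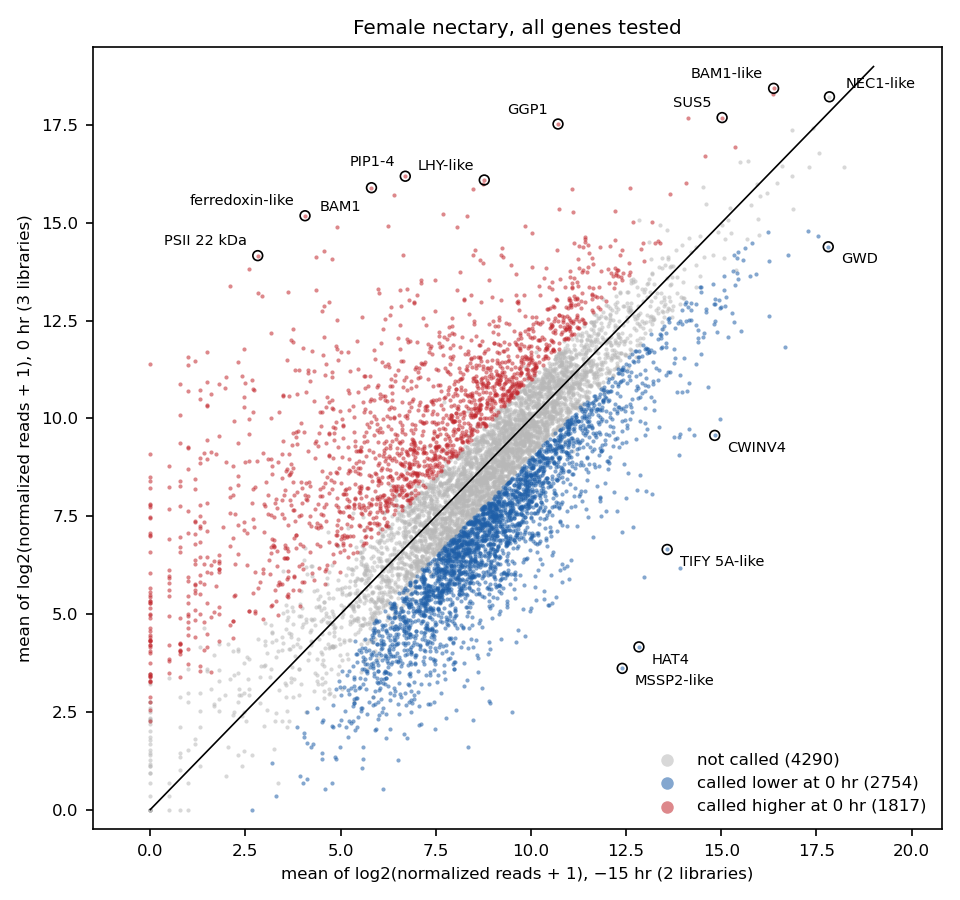
Mean of log2(normalized reads + 1) of each of the 8861 genes at −15 hr (x axis, 2 libraries) and at 0 hr (y axis, 3 libraries), with genes called higher in red, called lower in blue and not called in grey, and equality as a line. Red points spread far above the line from near 0 at −15 hr, as for the photosystem II 22 kDa protein and BAM1, whereas most blue points run close below it and HAT4 and MSSP2-like lie farthest from it.

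Among the genes with the largest gains in normalized reads by 0 hr were a beta-amylase, an enzyme of ascorbate synthesis, nitrate reductase and an ARG2-like gene. Beta-amylase 1-like (XM_008440214.1), of the plastid enzymes that release maltose from starch, rose from 109033 and 66315 normalized reads at −15 hr to 390671, 369522 and 312997 at 0 hr. GDP-L-galactose phosphorylase 1 (GGP1, XM_008449496.1), which catalyses the committed step of ascorbate synthesis, rose from 1736 and 1617 to 227839, 194050 and 153457. Nitrate reductase (XM_008462231.1), the first enzyme of nitrate assimilation, rose from 23113 and 13949 to 258173, 212224 and 168081. The stages did not overlap for any of these genes. The log2 changes were 2.07 (SE 0.74, adjusted p = 0.0209) for beta-amylase 1-like, 6.82 (SE 0.83, adjusted p = 1.48e-06) for GGP1 and 3.55 (SE 0.75, adjusted p = 0.000465) for nitrate reductase. Without replicate 2 at −15 hr beta-amylase 1-like was not called (1.71, adjusted p = 0.143), nor was it with the 11 female libraries fitted alone (adjusted p = 0.0651). An ARG2-like gene (XM_008453336.1), named for induction by auxin in mung bean, rose from 86090 and 82803 to 323649, 291227 and 352879, a log2 change of 1.93 (adjusted p = 0.0399). HMA3-like (XM_008455480.1), of a family of metal-transporting ATPases, rose from 47135 and 37783 to 165749, 104143 and 115324 (1.58, adjusted p = 0.0467). Neither was called when any 1 of the 5 libraries was left out, with adjusted p from 0.0604 to 0.129 for ARG2-like and from 0.057 to 0.181 for HMA3-like.

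The largest increases by fold started from values near 0 at −15 hr. A ferredoxin-like gene (XM_008457831.1), a carrier of electrons in plastids, rose from 13 and 19 normalized reads to 56704, 27589 and 33032 (log2 change of 11.12, SE 1.23, adjusted p = 5.41e-07). A gibberellin 2-beta-dioxygenase-like gene (XM_008441411.1), of the enzymes that inactivate gibberellins, rose from 1 and 8 to 13595, 7745 and 11539 (11.30, 1.19, adjusted p = 3.2e-07). In both genes the 0 hr libraries lay far above those of −15 hr. A salt tolerance protein-like gene (XM_008461815.1), named in Arabidopsis for a B-box protein of light signalling, rose from 8 and 3 to 14292, 11495 and 18824. Glutaredoxin-C9 (XM_008441580.1), a small thiol redox protein, rose from 3 and 0 to 3897, 2192 and 3273. The heat stress transcription factor C-1-like gene (XM_008460129.1) rose from 4 and 0 to 2039, 2734 and 4134. Their log2 changes were 11.25, 10.57 and 10.31. A WAT1-related gene (XM_008465268.1), of a family of transporters named for auxin transport at the vacuole, was listed at 0 in both −15 hr libraries and at 5673, 2599 and 1350 at 0 hr. An EGF domain-specific O-GlcNAc transferase-like gene (XM_008457566.1), an F-box gene like At4g05010 (XM_008441685.1) and the kinase STN7 (XM_008467504.1), which in Arabidopsis phosphorylates light-harvesting proteins, had log2 changes of 10.40, 10.36 and 10.19.

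The largest decreases were in a sugar carrier and in regulators. The monosaccharide-sensing protein 2-like gene (MSSP2-like, XM_008466597.1), of the family that loads hexoses into the vacuole, fell from 4774 and 6103 normalized reads to 19, 12 and 6 (log2 change of −8.79, SE 0.93, adjusted p = 3.2e-07). HAT4 (XM_008450593.1), which in Arabidopsis takes part in shade avoidance, stood at 5831 and 9184 at −15 hr and at 11, 24 and 18 at 0 hr. Every 0 hr library of both genes was under 25. The methyltransferase PMT15 (XM_008439870.1) fell from 7496 and 8520 to 35, 128 and 49 (−7.02), and TIFY 5A-like (XM_008453625.1), of the repressors of jasmonate signalling, fell from 9935 and 15070 to 66, 167 and 89 (−6.93). A putative glucose-6-phosphate 1-epimerase (XM_008439728.1) fell from 7865 and 5585 to 165, 163 and 120 (−5.48). Kinase NSP-INTERACTING KINASE 3 (XM_008446130.1), of the receptor kinases, fell from 316 and 401 to 9, 5 and 1, a log2 change of −6.18. An uncharacterized gene (LOC103492703, XM_008453178.1) was among the largest losses in summed values, from 116658 and 94802 to 2628, 6275 and 2957 (−4.85, adjusted p = 1.98e-05). In all, 425 of the 1775 uncharacterized genes were called higher and 504 lower.

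Genes of starch synthesis fell. Of 9 members, 7 were called lower and 1 higher, with a median log2 change of −2.13 against −0.30 over all genes, and the counts were the same with the median-of-ratios scaling. Starch-branching enzyme 2-2 (XM_008444588.1), which adds branches to the glucan chain, fell from 9546 and 11684 normalized reads to 545, 1086 and 1128 (log2 change of −3.59, adjusted p = 2.22e-07). The branching enzyme with the highest values (SBE1, XM_008466627.1) fell from 25916 and 31645 to 6261, 7520 and 3444 (−2.39, SE 0.58, adjusted p = 0.00155). The small subunit of ADP-glucose pyrophosphorylase (AF030382.1), which supplies ADP-glucose, fell from 7336 and 9111 to 1329, 1335 and 1079 (−2.72). In each of these genes the lowest −15 hr library was above the highest 0 hr library. Isoamylase 1 (XM_008455308.1), which trims branches while the granule is built, fell by 2.77 on the log2 scale, and the large subunit of ADP-glucose pyrophosphorylase and starch synthases 3 and 4 fell by 2.13, 1.76 and 1.95. The exception was granule-bound starch synthase 2 (XM_008445178.1), which rose from 122 and 102 to 557, 645 and 592 (2.41). Together the 9 genes held 0.346 and 0.469% of the summed values at −15 hr and 0.0645 to 0.0964% at 0 hr.

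Genes of starch degradation moved both ways. Of 19 members, 3 were called higher and 7 lower, in shares not far from the background. Those that rose were beta-amylase genes. Beyond beta-amylase 1-like, described above, beta-amylase 1 (XM_008462489.1) rose from 66 and 46 normalized reads to 66029, 52999 and 65520 (log2 change of 10.09, SE 0.47, adjusted p = 3.95e-11). Beta-amylase 9 (XM_008460269.1), annotated as inactive, rose from 1423 and 595 to 33289, 28465 and 32020 (5.08). In both genes every 0 hr library was above both −15 hr libraries. The dikinases that phosphorylate the granule surface fell. Glucan, water dikinase (GWD, XM_008447957.1) fell from 235396 and 224717 to 16003, 29479 and 21008 (−3.42, SE 0.63, adjusted p = 0.000131), and phosphoglucan, water dikinase (PWD, XM_008455784.1) fell from 30091 and 45485 to 4232, 6144 and 3120 (−3.09).

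Genes that handle the maltose released by beta-amylase fell as well. The plastid maltose exporter MEX1-like (XM_008464630.1) fell from 38771 and 40265 normalized reads to 5978, 7939 and 6123 (log2 change of −2.58, adjusted p = 6.75e-06). The cytosolic glucanotransferase DPE2 (XM_008457528.1), which takes up glucose units from maltose, fell from 182241 and 202590 to 19253, 31887 and 29426 (−2.87, SE 0.46, adjusted p = 3.46e-05). Cytosolic alpha-glucan phosphorylase (PHS2, XM_008465841.1), which acts on the product of DPE2, had 294751 and 316029 at −15 hr and 66486, 112501 and 94049 at 0 hr. Its libraries did not overlap, but its log2 change of −1.78 (SE 0.82) had an adjusted p of 0.0677 and was not called. Debranching enzyme pullulanase 1 (XM_008448594.1) fell by 3.08 and the phosphatase LSF2 (XM_008458697.1) by 2.48 on the log2 scale. Alpha-amylase 3 (XM_008448092.1) had 57302 and 78185 at −15 hr and 46139 to 56829 at 0 hr (−0.34, adjusted p = 0.56). In the summed values, the 19 genes held 7.0 and 7.59% at −15 hr and 4.40 to 4.93% at 0 hr.

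Of 12 genes of sucrose synthesis, 6 were called lower and 1 higher. The sucrose-phosphate synthase with the highest values (SPS2, XM_008458932.1) had 208546 and 144523 normalized reads at −15 hr and 252574, 162382 and 136965 at 0 hr. Its libraries overlapped (log2 change of 0.03, SE 0.91, adjusted p = 0.977). Its paralog SPS1 (XM_008445712.1) fell from 45169 and 28238 to 11599, 10923 and 5537 (−2.01, adjusted p = 8.22e-05). Sucrose-phosphatase 1 (XM_008444746.1), which completes the synthesis, had 95117 and 85726 at −15 hr and 58537 to 85134 at 0 hr and was not called (−0.44). UDP-glucose pyrophosphorylase (DQ445483.1), which makes UDP-glucose, fell from 94370 and 65360 to 10304, 22009 and 20201 (−2.24), and the plastid phosphoglucomutase (XM_008469031.1), which interconverts glucose phosphates, fell from 3134 and 1808 to 122, 173 and 168 (−3.96). The cytosolic fructose-1,6-bisphosphatase (XM_008447539.1), an entry point for triose phosphates, rose from 815 and 876 to 2234, 2057 and 2373 (1.39).

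Among 20 genes that split sucrose or phosphorylate hexoses, 3 were called higher and 8 lower, and those that rose were sucrose synthases. With the median-of-ratios scaling 5 were called higher and 8 lower. Sucrose synthase 5 (SUS5, XM_008464945.1), which splits sucrose into UDP-glucose and fructose in a reversible reaction, rose from 47769 and 23186 normalized reads to 215600, 223349 and 198252 (log2 change of 2.67, SE 0.74, adjusted p = 0.00408), with no overlap, but was not called without replicate 2 at −15 hr (2.15, adjusted p = 0.0646). A further sucrose synthase (XM_008452746.1) rose from 5 and 6 to 391, 255 and 246 (5.49). Sucrose synthase 2 (XM_008456098.1) had 155 and 78 at −15 hr and 133, 486 and 1436 at 0 hr, and was called (2.03, adjusted p = 0.0483) although its libraries overlapped. It was not called without either −15 hr library, without replicate 2 or 3 at 0 hr or with the 5 libraries fitted alone, with adjusted p from 0.0646 to 0.257. The cell-wall invertase CWINV4 (XM_008446238.1, described in melon as CWINV3-like), of the enzymes that split exported sucrose, fell from 62378 and 13577 to 422, 793 and 1300 (−5.26, SE 0.65, adjusted p = 1.82e-06). Its −15 hr libraries differed from each other by more than 4-fold, yet both were more than 10 times the highest 0 hr library. Invertase 2 (FJ231520.1) fell from 95153 and 60868 to 36228, 30069 and 20209 (−1.44), and 2 alkaline/neutral invertases (XM_008448549.1 and XM_008463700.1) fell by 2.36 and 2.26. A hexokinase-1-like gene (XM_008460627.1), which phosphorylates hexoses, fell from 64850 and 46585 to 9653, 14589 and 15002 (−2.10). Without replicate 1 at −15 hr, 5 members in place of 8 were called lower, and invertase 2 was not (−1.12, adjusted p = 0.0873).

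For 4 of these genes the study designed primers for quantitative RT-PCR, which was run on RNA of male nectaries, and their sequences are shown to identify the transcripts. The branching enzyme of that assay is named SBE2 in the study's text. Each is written 5′ to 3′ in lower case, with no part marked by capitals.
CWINV4 forward: cttcccgagtatatccgactttg
CWINV4 reverse: ccaaaccttcaaacgggaaatc
SBE1 forward: gcaccaactgaaacaccattc
SBE1 reverse: caaccgacccaattccttca
beta-amylase 1-like forward: ttcagaggagaccgagatgt
beta-amylase 1-like reverse: ggttcttcccttccttcatctt
SUS5 forward: ggaagaacgagaagctgagaa
SUS5 reverse: ctgccctttgagttggtatttg

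Sugar carriers were called in both directions. The NEC1-like gene for sucrose export overlapped between the stages, with 292544 and 188998 normalized reads at −15 hr and 300500, 269060 and 356879 at 0 hr (log2 change of 0.38, SE 1.04, adjusted p = 0.764). Of the 3 other SWEET genes, SWEET4-like (XM_008453693.1) was called, and a second SWEET gene only without replicate 1 at 0 hr. SWEET4-like rose from 599 and 213 to 2011, 1713 and 2740 (2.56, adjusted p = 0.00935), and was not called without replicate 2 at −15 hr (1.82, adjusted p = 0.138). Among 22 other sugar carriers, 3 were called higher and 8 lower, or 5 and 6 with the median-of-ratios scaling. The ERD6-like 6 carrier (XM_008446496.1), of a family of vacuolar sugar exporters, fell from 92029 and 66664 to 4648, 8640 and 6216 (−3.64), and the plastidic glucose transporter 4 (XM_008463334.1), which exports glucose from starch breakdown, fell from 2746 and 2749 to 228, 331 and 302 (−3.27). Other entries of the same families did not fall. Monosaccharide-sensing protein 2 (XM_008449943.1) rose from 24 and 54 to 148, 252 and 158 (2.29), and a second ERD6-like 6 entry (XM_008468337.1) overlapped between the stages and was not called. Sugar transport protein 14-like (XM_008467241.1), of the plasma-membrane hexose importers, rose from 3 and 0 to 213, 125 and 89 (6.07). Of 8 genes of raffinose-family sugars, the one with the highest values, a galactinol–sucrose galactosyltransferase 6 (XM_008445736.1), had 210929 and 180192 at −15 hr and 73836, 158741 and 124437 at 0 hr and was not called (−0.78, adjusted p = 0.27). Only an alpha-galactosidase (XM_008458716.1) was called, and it fell by 1.08 on the log2 scale. It was not called with the median-of-ratios scaling (−0.76) or without replicate 1 at 0 hr (−0.89).

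**Figure D2:**
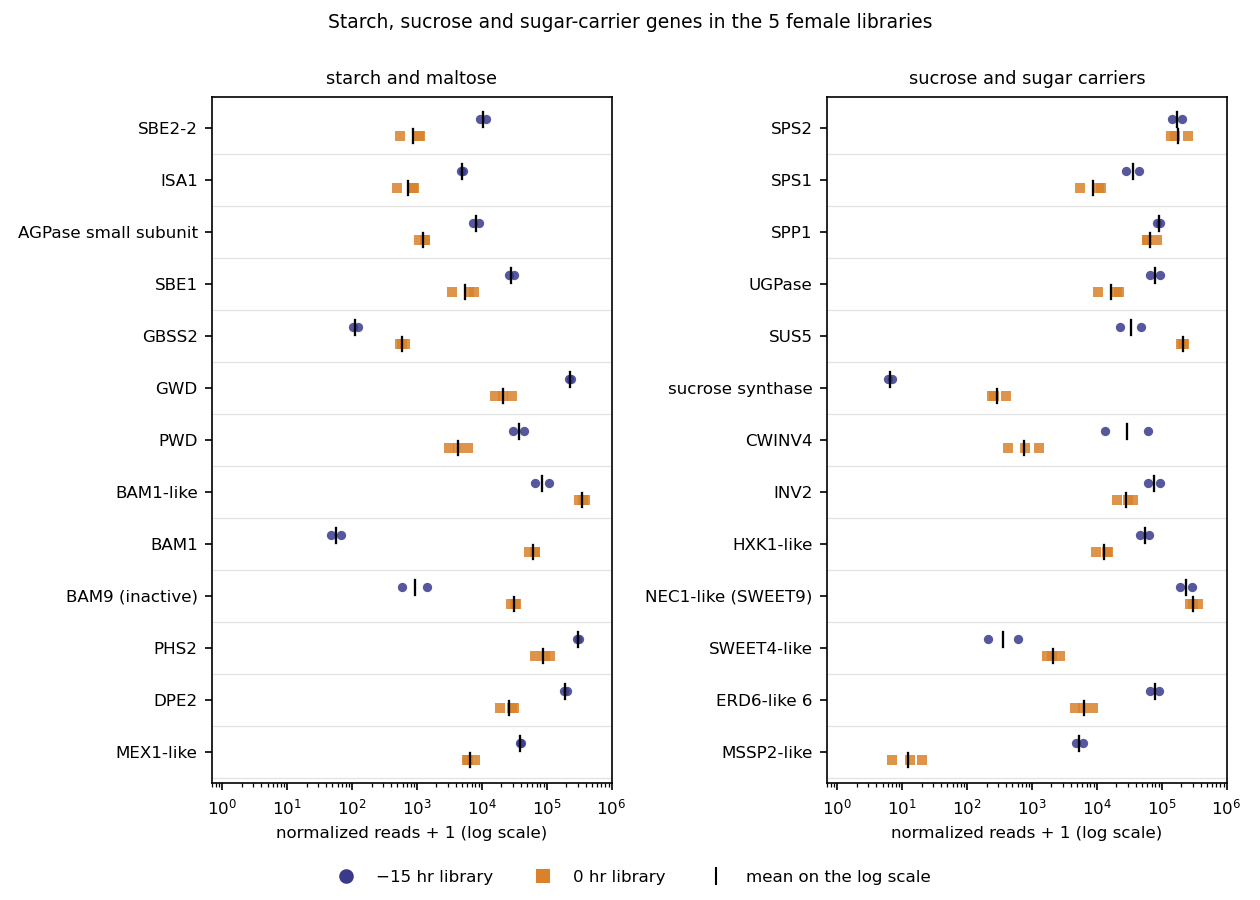
Normalized reads plus 1 (log axis) of 26 genes of starch, sucrose and sugar transport, with circles for the 2 libraries at −15 hr, squares for the 3 at 0 hr and black ticks for the mean on the log scale. Beta-amylase 1, SUS5 and SWEET4-like moved to the right at 0 hr, GWD, DPE2, CWINV4 and MSSP2-like to the left, and the symbols of SPS2 and the NEC1-like gene overlap.

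Plasma-membrane aquaporins, channels for water, rose. Of 8 members, 6 were called higher and 1 lower, with a median log2 change of 4.28. PIP1-4 (XM_008465000.1) rose from 115 and 92 normalized reads to 103755, 65889 and 61832 (log2 change of 9.50, SE 0.65, adjusted p = 2.92e-09). A second PIP1-4 entry (XM_008468703.1) rose from 3 and 1 to 3116, 2614 and 4560 (10.20), and PIP2-7 (XM_008465721.1) from 19 and 27 to 7629, 6797 and 8320 (8.32). In these 3 genes the 0 hr libraries lay far above those of −15 hr. PIP2-2-like (XM_008451033.1) rose from 233 and 392 to 10478, 8049 and 7487 (4.82), and a second PIP2-7 entry (XM_008449725.1) from 81 and 25 to 729, 526 and 606 (3.74). PIP2-4 (XM_008444455.1) rose from 11 and 11 to 74, 142 and 103 (3.11), whereas PIP1-2 (XM_008439071.1) fell from 495 and 223 to 81, 79 and 126 (−1.82) and PIP2-5 (XM_008458254.1) had 47 and 49 at −15 hr and 41 to 49 at 0 hr. The 8 genes held 0.00587 and 0.00664% of the summed values at −15 hr and 0.561 to 0.791% at 0 hr. Of 9 aquaporins of the vacuole and other membranes, 3 rose and 2 fell. TIP2-2 (XM_008438844.1), of the vacuolar membrane, rose from 3 and 6 to 3884, 2273 and 1179 (8.69), NIP5-1 (XM_008439275.1), known as a boric acid channel in Arabidopsis, rose from 1 and 8 to 326, 245 and 335 (6.14), and SIP1-1-like (XM_008443748.1), of the endoplasmic reticulum, fell from 3764 and 5962 to 634, 929 and 606 (−2.74).

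Genes of light harvesting rose as a group. Of 26 members, 20 were called higher and 0 lower, with a median log2 change of 3.79 and 21 called higher with the median-of-ratios scaling. Photosystem II 22 kDa protein (XM_008468488.1), which dissipates excess light, had 9 and 4 normalized reads at −15 hr and 22253, 14527 and 19155 at 0 hr. The light-harvesting protein CP26 (XM_008461272.1) rose from 4 and 7 to 2264, 1726 and 2179 (log2 change of 8.34, adjusted p = 1.94e-07), and the photosystem II 10 kDa polypeptide (XM_008453604.1) from 68 and 277 to 15833, 8459 and 12483 (6.42). Neither gene overlapped between the stages. Replicate 2 at −15 hr was at least 4 times replicate 1 in 8 of the 26 members, on the scale of values plus 1, and the reverse held in 0. Without replicate 1 at −15 hr 16 members were called higher, and without replicate 2 it was 23. In that replicate Rubisco small chain (XM_008448380.1), of the carbon-fixing enzyme, stood at 729 against 4 in replicate 1 and 754, 1267 and 1069 at 0 hr. It was called higher (4.06, adjusted p = 0.0428), but not without replicate 1 at −15 hr (0.47). The call was also lost without any 1 of the 0 hr libraries (adjusted p from 0.062 to 0.0859). It was lost as well with the 5 or the 11 female libraries fitted alone (adjusted p = 0.0836 and 0.112) and with a replicate block by description number (adjusted p = 0.0596). Chlorophyll a-b binding protein 151 (XM_008463862.1) stood at 950 against 20 and 297 to 412, and was not called (1.26). The 26 genes held 0.00402 and 0.0277% of the summed values in replicates 1 and 2 at −15 hr and 0.242 to 0.342% at 0 hr. Of 11 genes of chlorophyll metabolism, 5 rose and 2 fell, or 5 and 1 with the median-of-ratios scaling. Chlorophyllide a oxygenase (XM_008468493.1), which makes chlorophyll b, rose from 37 and 106 to 10914, 9511 and 10294 (7.33), and the ChlH subunit of magnesium chelatase (XM_008462547.1) rose from 0 and 8 to 1613, 1301 and 1853 (9.03), while the ChlI subunit (XM_008441547.1) fell from 147 and 173 to 49, 38 and 21 (−2.20).

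Genes of the circadian clock were mostly called, in both directions. Of 20 entries, which fall on 15 loci, 8 were higher and 10 lower. An LHY-like entry (XM_008461600.1), in Arabidopsis a morning-expressed repressor, rose from 218 and 874 normalized reads to 101822, 53890 and 62994 (log2 change of 7.32, SE 0.98, adjusted p = 4.36e-06). REVEILLE 2-like (XM_008441373.1), of the same family, rose from 507 and 494 to 8206, 9756 and 8441 (4.13). Genes that peak later in the day in Arabidopsis fell. GIGANTEA-like (XM_008458521.1) fell from 34698 and 29795 to 581, 2515 and 726 (−4.98, adjusted p = 1.72e-07), and APRR7 (XM_008449024.1), a pseudo-response regulator, fell by 3.32 on the log2 scale. PCL1-like (XM_008459232.1), of the evening complex, fell from 670 and 789 to 0, 14 and 11 (−7.01). None of these genes overlapped between the stages, and samples of −15 hr were taken later in the day than those of 0 hr.

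**Figure D3:**
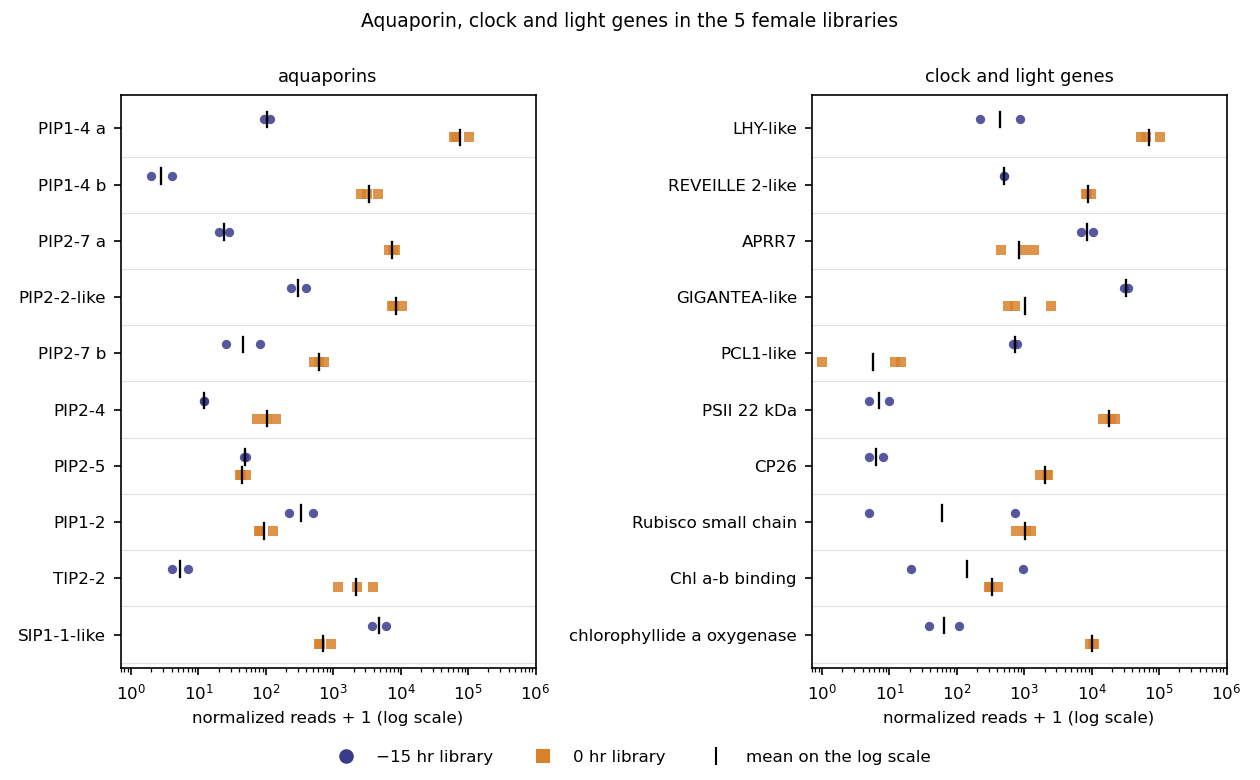
Normalized reads plus 1 (log axis) of 10 aquaporin genes (left) and 10 clock and light genes (right), with circles for the 2 libraries at −15 hr, squares for the 3 at 0 hr and black ticks for the mean on the log scale. PIP1-4 a is XM_008465000.1 with 115 and 92 normalized reads at −15 hr and at least 61832 at 0 hr, b is XM_008468703.1, and PIP2-7 a is XM_008465721.1. For Rubisco small chain and the chlorophyll a-b binding protein shown, a −15 hr circle lies near or beyond the squares.

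Genes for ribosomal proteins fell nearly throughout. Of 164 cytosolic members, 147 were called lower (89.6%) and 2 higher, with a median log2 change of −1.78. In 160 of the 164 every 0 hr library was below both −15 hr libraries, against 45.9% of all genes. With the median-of-ratios scaling 127 were called lower. The 60S protein L17-2 (XM_008447825.1) fell from 511 and 704 normalized reads to 51, 74 and 55 (−3.32). The exceptions were 60S L10-like (XM_008453563.1), from 1333 and 1156 to 7211, 5263 and 4904 (2.20, adjusted p = 0.00106), and an L18a-like protein (XM_008454218.1), from 159 and 258 to 528, 460 and 344 (1.11). The latter was not called without replicate 1 at −15 hr (0.76, adjusted p = 0.223) or without replicate 1 or 2 at 0 hr. As a share of the summed values the 164 genes went from 0.967 and 1.1% to 0.289 to 0.39%. Of 54 proteins of plastid and mitochondrial ribosomes, 44 fell and 2 rose (median −2.07). The plastid protein L1 (XM_008463600.1) stood apart, with 4 and 29 at −15 hr and 9133, 8631 and 11270 at 0 hr (9.62). Of 29 genes of ribosome biogenesis, 15 fell and 2 rose, and of 42 pentatricopeptide repeat proteins, which process organelle RNA, 22 fell and 6 rose. Genes of DNA replication and the cell cycle had 17 of 53 called lower and 4 higher, close to the background for lower calls, and 11 lower without replicate 2 at −15 hr.

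Genes of respiration were called lower more often in some groups than in others. Of 31 members of the tricarboxylic acid cycle, 19 were called lower (61.3%) and 2 higher, with a median log2 change of −1.38, or 16 and 2 with the median-of-ratios scaling. A 2-oxoglutarate dehydrogenase (XM_008463430.1) fell from 22488 and 10585 normalized reads to 1797, 2744 and 2188 (−2.80). The NADP-dependent malate dehydrogenase of plastids (XM_008448587.1), an enzyme of the light-driven malate valve, rose from 728 and 851 to 8692, 6938 and 8828 (3.36, adjusted p = 3.48e-08). Of 65 genes of the respiratory chain, 33 fell and 4 rose. With the median-of-ratios scaling only 15 were called lower, a share near that of all genes with that scaling (2131 of 8861). Of 33 glycolytic genes, 12 fell and 6 rose, shares near the background. Among paralogs of cytosolic glyceraldehyde-3-phosphate dehydrogenase, XM_008443151.1 fell from 18650 and 22982 to 1616, 3621 and 3395 (−2.93), whereas XM_008441186.1 rose from 1593 and 3101 to 23827, 20595 and 24685 (3.37). Of 25 proton pump genes, 5 fell and 2 rose, or 2 and 3 with the median-of-ratios scaling. The pyrophosphate-energized pump of the vacuole (XM_008445704.1) fell from 159767 and 155599 to 20293, 36079 and 31647 (−2.47, SE 0.41, adjusted p = 5.25e-05), and plasma membrane ATPase 4-like (XM_008446867.1) rose from 64 and 35 to 488, 403 and 538 (3.29). Without replicate 2 at −15 hr the latter was not called (2.87, adjusted p = 0.066), and without replicate 1 at −15 hr 3 proton pump genes in place of 5 were called lower. The plasma-membrane pumps with the highest values did not rise. ATPase 11-like (XM_008461072.1) fell from 44918 and 42944 to 18966, 23232 and 12579 (−1.31), but was not called with the median-of-ratios scaling (−0.99). Plasma membrane ATPase 4 (XM_008453341.1) had 86725 and 48065 at −15 hr and 30339 to 41208 at 0 hr and was not called (−0.87).

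**Figure D4:**
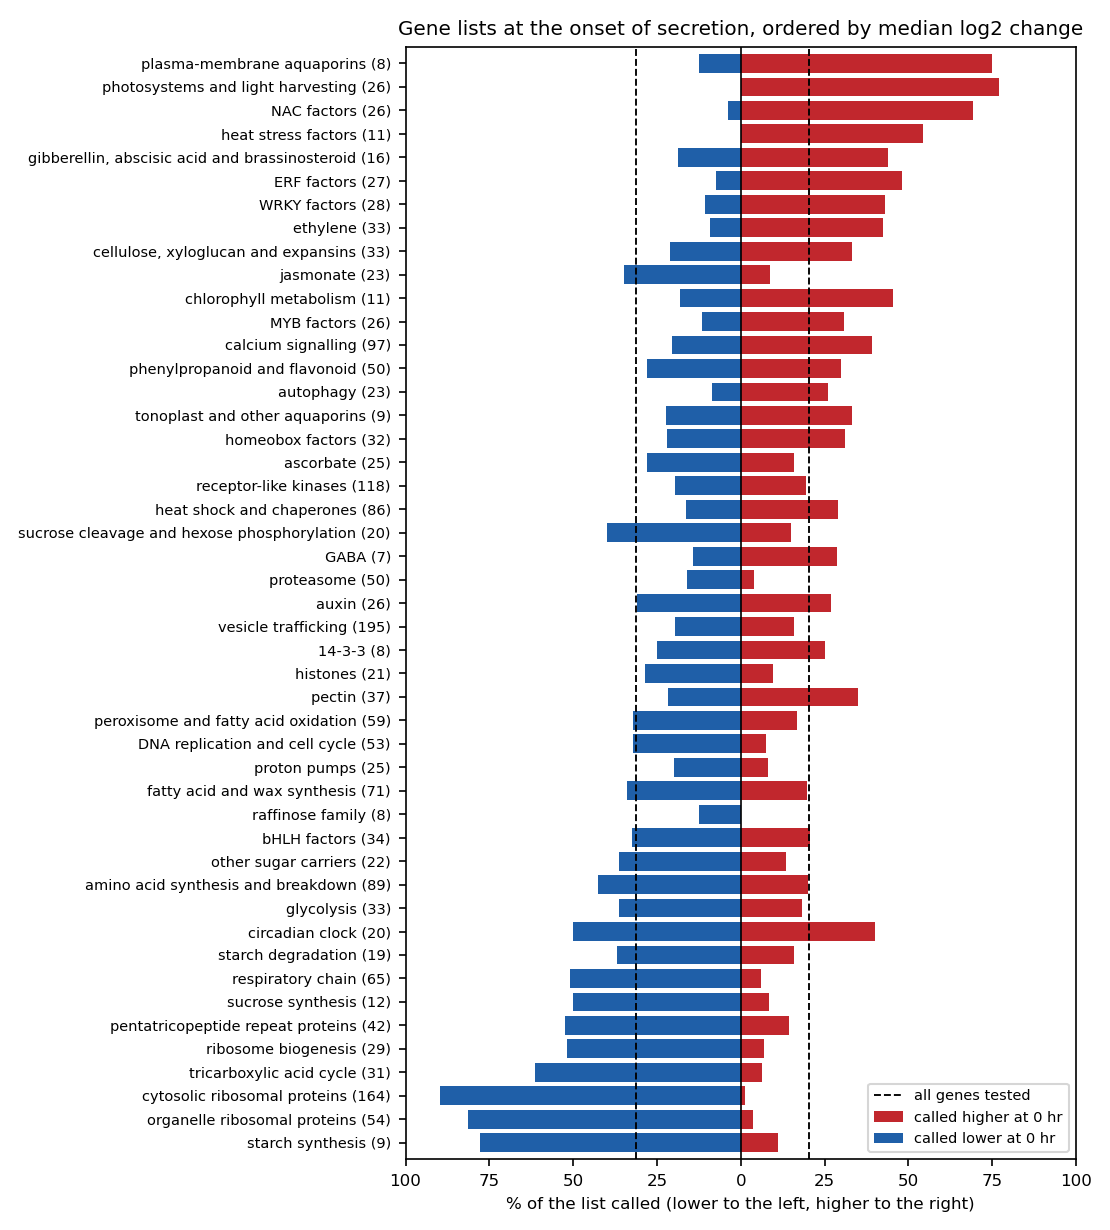
Percentage of the members of each of the lists with at least 7 members that were called higher at 0 hr (red, to the right) or lower (blue, to the left), ordered by the median log2 fold change, with the number of members in brackets and the share of all genes tested (20.5% higher, 31.1% lower) as dashed lines. Plasma-membrane aquaporins, photosystem genes and NAC factors extend farthest to the right, and cytosolic and organelle ribosomal proteins and starch synthesis farthest to the left.

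Transcription factors differed by family. Of 26 NAC factors, plant-specific regulators known from stress and senescence, 18 were called higher and 1 lower. Their median log2 fold change was 2.77, or 2.43 with the group listed at 0 of 1 member set to 3 normalized reads. NAC72-like (XM_008456444.1) rose from 30 and 17 normalized reads to 19502, 13932 and 28580 (9.71, adjusted p = 4.11e-10), an ATAF-type factor (EF173162.1) from 79 and 122 to 25012, 14502 and 17289 (7.54), and NAC55-like (XM_008454051.1) from 13 and 12 to 3349, 5609 and 6504 (8.52). NAC89 (XM_008451717.1) was the member that fell, from 182 and 205 to 97, 86 and 98 (−1.04), and it was not called with the median-of-ratios scaling (−0.72) or without replicate 2 of either timepoint (−0.95 and −0.98). Of 11 heat stress factors, 6 rose and 0 fell. Of 27 ERF factors, 13 rose and 2 fell, or 15 and 1 with the median-of-ratios scaling, and 6 rose where genes had to reach 100 in 2 of the 5 libraries. ERF4-like (XM_008441597.1) rose from 24 and 20 to 815, 1461 and 1283 (5.65). Of 28 WRKY factors, 12 rose and 3 fell, and WRKY69 (XM_008457070.1) rose from 1 and 2 to 167, 164 and 217 (6.22) while WRKY15 (XM_008464617.1) fell from 1949 and 1376 to 95, 152 and 183 (−3.56).

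Of 26 MYB factors, 8 were called higher and 3 lower, and 4 were called higher without replicate 2 at −15 hr. MYB305 itself had 58835 and 48362 normalized reads at −15 hr and 104104, 90598 and 100162 at 0 hr, with no overlap and no call (log2 change of 0.88, SE 0.76, adjusted p = 0.321). This SE pools the spread of all groups, and at +9 hr female nectaries averaged 3067 (SD 4071). Over the 14 alternatives the log2 change of MYB305 was 0.738 to 1.2. Its lowest adjusted p there was 0.0232 (limma), and it was called in none. Of 34 bHLH factors, 7 rose and 11 fell (20.6 and 32.4%, near the background), or 9 and 6 with the median-of-ratios scaling. The bHLH gene with the highest values, bHLH79 (XM_008454936.1), fell from 48519 and 44782 to 4018, 5657 and 4905 (−3.28, adjusted p = 0.00148), and bHLH68-like (XM_008467411.1) rose from 364 and 359 to 10185, 4919 and 3176 (3.90). Of 32 homeobox factors, 10 rose and 7 fell, HAT4 having the largest change. Of these, 6 rose without replicate 2 at −15 hr, and 4 fell without replicate 1 at 0 hr. The knotted-1-like 6 gene (XM_008447965.1), of a family of meristem regulators, fell from 888 and 1666 to 81, 89 and 81 (−3.85). The homeobox and bHLH groups thus had calls both ways, where NAC and heat stress factors had almost only increases.

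Genes of hormone pathways were called in both directions. Of 33 ethylene genes, among them the ERF factors named for it, 14 rose and 3 fell, or 16 and 0 with the median-of-ratios scaling, and 1 fell without either −15 hr library or replicate 3 at 0 hr. Of 23 jasmonate genes, 8 fell and 2 rose, or 6 each with the median-of-ratios scaling, and 4 rose without replicate 1 at 0 hr. A lipoxygenase (KF888257.1), of the first step toward jasmonate, fell from 1322 and 3380 normalized reads to 72, 86 and 89 (log2 change of −4.67), and 12-oxophytodienoate reductase 3 (XM_008452694.1), a later enzyme, from 416 and 330 to 35, 88 and 75 (−2.57). Going the other way, an allene oxide synthase (XM_008456662.1) rose from 5 and 2 to 371, 251 and 74 (5.50), and the receptor COI1 (XM_008464995.1) rose from 682 and 702 to 1600, 2032 and 2646 (1.56). Of 26 auxin genes, 7 rose and 8 fell (26.9 and 30.8%, against 20.5 and 31.1% of all genes). Auxin response factor 8 (XM_008464905.1) fell from 1044 and 1290 to 51, 97 and 67 (−4.05, adjusted p = 2.17e-08), and the repressor IAA26-like (XM_008449337.1) rose from 164 and 74 to 1464, 1244 and 862 (3.39). Of 16 genes of gibberellin, abscisic acid and brassinosteroid, 7 rose and 3 fell. Among abscisic acid receptors, PYL8-like (XM_008439359.1) fell from 1786 and 1805 to 53, 88 and 95 (−4.54), whereas PYL4-like (XM_008444150.1) rose from 116 and 111 to 2546, 1565 and 1937 (4.11). The enzyme NCED3 (XM_008441403.1), which makes the precursor of abscisic acid, rose by 2.58 on the log2 scale.

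Of 97 genes of calcium signalling, 38 rose and 20 fell. Calcium-transporting ATPase 13 (XM_008457668.1), annotated as a plasma-membrane pump, rose from 241 and 415 normalized reads to 37396, 33975 and 40978 (log2 change of 6.88, SE 0.62, adjusted p = 4.82e-08), and calcium-dependent protein kinase 3 (XM_008453772.1) fell from 1472 and 1307 to 26, 43 and 44 (−5.20). Receptor-like kinases were called at shares near or under the background, with 23 of 118 higher and 23 lower, and 15 lower without replicate 2 at −15 hr. Of 8 genes for 14-3-3 proteins, phosphoprotein-binding adaptors, 2 rose, 2 fell and 4 were not called, with 1 called lower without replicate 2 at −15 hr. The isoform with the highest values (XM_008467997.1) had 30032 and 18801 at −15 hr and 14735 to 24244 at 0 hr. Both isoforms of the GF14 iota type rose (XM_008448206.1 by 2.40 and XM_008447230.1 by 1.41).

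Metabolism other than that of sugars also had large single changes. Of 25 ascorbate genes, 4 rose and 7 fell, shares under the background. Their summed values were 24828 and 21623 normalized reads at −15 hr and 175168 to 250085 at 0 hr, but without GGP1 the other 24 genes summed to 23092 and 20006 at −15 hr and to 21711 to 23467 at 0 hr. Downstream of GGP1, L-galactono-1,4-lactone dehydrogenase (AF252339.2), the last enzyme of the route, fell from 737 and 590 normalized reads to 100, 118 and 122 (log2 change of −2.54, adjusted p = 4.9e-07), and L-galactose dehydrogenase (XM_008456890.1) fell by 1.47. Of 7 GABA genes, 2 rose and 1 fell, and 0 rose without replicate 2 at −15 hr. Glutamate decarboxylase 1 (XM_008464930.1), which makes GABA, rose from 5 and 0 to 19, 61 and 25 (3.70), but was not called without replicate 2 at −15 hr (2.41, adjusted p = 0.142) or with a pseudocount of 10 (1.76, adjusted p = 0.067). GABA transporter 1-like (XM_008448565.1) rose from 1146 and 270 to 7968, 2543 and 2718 (2.77, adjusted p = 0.00704), but was not called without replicate 2 at −15 hr (1.73, adjusted p = 0.159). The mitochondrial succinate-semialdehyde dehydrogenase (XM_008458063.1), which breaks GABA down, fell by 1.13 on the log2 scale, and by less than the 2-fold limit without replicate 1 at 0 hr (−0.95) or with the median-of-ratios scaling (−0.81). Of 89 genes of amino acid metabolism, 38 fell and 18 rose. The entries aminotransferase 1 and Hemed aminotransferase 1 (AY066012.1 and AY354208.1) rose together, from 63 to 80 at −15 hr to 4183 to 8489 at 0 hr, and such near-identical entries may share reads. Of 50 phenylpropanoid genes, 15 rose and 14 fell. Isoflavone 2′-hydroxylase (XM_008442106.1), a cytochrome P450, rose from 37 and 19 to 15886, 17859 and 18489 (9.30), and dihydroflavonol-4-reductase (XM_008454096.1) fell from 1456 and 1570 to 90, 109 and 73 (−4.06).

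Cell-wall and lipid genes were called in both directions. Of 33 genes of cellulose, xyloglucan and expansins, 11 rose and 7 fell, and 6 rose without replicate 2 at −15 hr. A xyloglucan endotransglucosylase (XM_008455396.1), which cuts and rejoins xyloglucan, rose from 20 and 25 normalized reads to 2431, 4918 and 2669 (log2 change of 7.09). Of 37 pectin genes, 13 rose and 8 fell, or 14 and 5 with the median-of-ratios scaling. Of 71 genes of fatty acid and wax synthesis, 14 rose and 24 fell (19.7 and 33.8%), shares near the background of 20.5 and 31.1%. Among those that fell were 3-oxoacyl-ACP synthase 3 (XM_008438901.1), from 873 and 1212 to 24, 34 and 51 (−4.85), and an acyl carrier protein (XM_008460274.1), from 521 and 848 to 18, 59 and 41 (−4.20). An LCAT-like acyltransferase (XM_008464872.1) rose from 1 and 11 to 3497, 2307 and 2621 (9.14). Of 59 peroxisomal genes, 10 rose and 19 fell (16.9 and 32.2%), also near the background. Isopentenyl-diphosphate isomerase (XM_008443627.1), an early enzyme of isoprenoid synthesis, fell from 113431 and 109305 to 15038, 22628 and 18659 (−2.59), and phytoene synthase (GU361622.1), the first enzyme of carotenoid synthesis, fell from 6104 and 4203 to 464, 629 and 792 (−3.04).

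Genes of protein and membrane turnover were called at shares that differed by group. Of 195 genes of vesicle trafficking, 31 rose and 38 fell, shares under the background both ways, and 44 rose and 26 fell with the median-of-ratios scaling. Exocyst subunit EXO70B1-like (XM_008450135.1), of the complex that tethers vesicles to the plasma membrane, rose from 47 and 58 normalized reads to 607, 941 and 1164 (log2 change of 4.04). Of 50 proteasome genes, 2 rose and 8 fell, and 40 were not called. With the median-of-ratios scaling 9 were called higher and 5 lower. Those called higher were 4 without replicate 2 at −15 hr and 1 without replicate 3 at 0 hr. Of 23 autophagy genes, 6 rose and 2 fell, or 0 fell with that scaling or without either −15 hr library. The kinase ATG1 (XM_008444286.1), which starts autophagy, rose from 531 and 573 to 2300, 2141 and 2306 (2.02, adjusted p = 5.81e-06). Of 86 heat shock proteins and chaperones, 25 rose (29.1%) and 14 fell, or 31 and 8 with the median-of-ratios scaling. A class I small heat shock protein (XM_008450453.1) rose from 1 and 2 to 565, 116 and 1525 (7.57), with a spread of more than 10-fold among the 0 hr libraries, and the plastid co-chaperone dnaJ 20-like (XM_008457310.1) rose from 3 and 0 to 480, 588 and 802 (8.25).

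Markers of other cell types differed in what was called. The 3 pollen-specific genes listed were not called, and their summed values were 1858 and 2119 at −15 hr and 2894 to 3706 at 0 hr. The xylem genes, a serine proteinase and laccase-4-like, summed to 166 and 200 at −15 hr and to 86 to 145 at 0 hr. The phloem list held only F-box proteins of the PP2 type, and no member is described as a phloem protein itself. Of these 6 entries, which fall on 5 loci, 1 was called higher and 2 lower. Those called lower are both PP2-A15 entries of the same locus, and XM_008444561.1 fell from 4981 and 3241 to 209, 243 and 155 (log2 change of −4.33). The guard-cell list held only the anion channel SLAH2 (XM_008439327.1) and not SLAC1, the channel planned as a marker. SLAH2 rose from 113 and 61 to 2123, 858 and 607 (3.62). Of 10 petal and chromoplast genes 3 rose and 4 fell, and of 4 epidermal and wax genes 2 rose, among them 3-ketoacyl-CoA synthase 4-like (XM_008446490.1) from 77 and 59 to 918, 871 and 655 (3.56). Of 4 ovule and style entries, which fall on 3 loci, 1 rose and 1 fell. Both are of the same locus, described in melon as AGAMOUS, which is named for a regulator of stamens and carpels. The 4 entries summed to 3277 and 3981 at −15 hr and to 1972 to 3035 at 0 hr. Of the 4 epidermal and wax genes, 1 that was not called had every 0 hr library below both −15 hr libraries. With 1 and 4 members, the guard-cell and epidermal lists are too short to show a gain of these cell types. What cell composition contributed to the changes of other genes was not tested.

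Most changes were shared with nectaries of male flowers, whose 3 libraries at −15 hr and 3 at 0 hr share none with the female comparison. In male nectaries, 1554 genes were called higher and 2631 lower (17.5 and 29.7% of genes tested). Both sexes called 1409 genes higher, which is 77.5% of the female and 90.7% of the male calls, and 2255 lower, which is 81.9 and 85.7%. Only 8 genes were called in opposite directions. Across genes, the log2 fold changes of the sexes had a Pearson correlation of 0.93 (8861 genes), as a description over genes that share their libraries. For beta-amylase 1-like the male log2 fold change was 1.84 beside 2.07 in female nectaries, for SUS5 it was 2.30 beside 2.67, for PIP1-4 it was 10.12 beside 9.50, and for CWINV4 it was −4.44 beside −5.26. The NEC1-like gene had −0.09 beside 0.38 and was called in neither sex. PHS2, not called in female nectaries, was called lower in male nectaries (−2.21, adjusted p = 0.0145), but the difference between the sexes was not called (0.43, adjusted p = 0.98).

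The test of the difference between the female and the male change called 1 gene, 0.0113% of those tested, and 580 genes (6.55%) had an unadjusted p under 0.05. That gene is uncharacterized (LOC103501490, XM_008465077.1). In female nectaries LOC103501490 had 952 and 398 normalized reads at −15 hr and 778, 482 and 85 at 0 hr, and in male nectaries 5, 19 and 14 at −15 hr and 710, 692 and 508 at 0 hr. It rose in male nectaries (log2 change of 5.70, SE 0.66) and was not called in female nectaries (−0.95, 0.74), a difference of −6.65 (SE 1.00, adjusted p = 0.0166). Between the sexes it therefore differed most at −15 hr. The next lowest adjusted p was 0.0875. The number of genes called depended on single libraries: 4 without replicate 1 and 7 without replicate 2 of the female −15 hr libraries, and 21 without replicate 1 and 2 without replicate 3 of the female 0 hr libraries. With a replicate block by description number 0 genes were called. Counts of calls in the families of transcription factors differed from list to list. Of the MYB factors 8 were called higher and 3 lower in female nectaries and 0 and 6 in male nectaries, of the NAC factors 18 and 1 against 14 and 0, and of the bHLH factors 7 and 11 against 7 and 14. For none of their members was the difference between the sexes called.

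**Figure D5:**
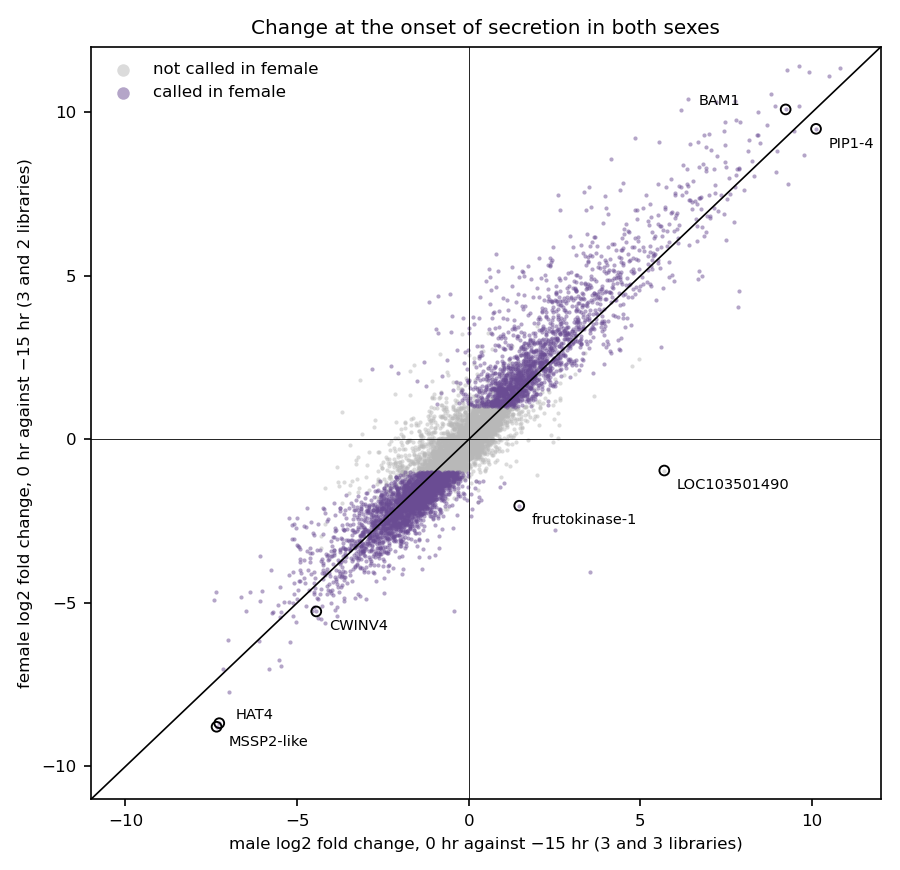
Log2 fold change from −15 to 0 hr of each of the 8861 genes in male (x axis, 3 libraries at each timepoint) and female nectaries (y axis, 2 and 3 libraries), with genes called in female nectaries in violet, the others in grey and equality as a diagonal line. The points lie along the diagonal, and LOC103501490, the gene called in the test of the difference, lies below it at 5.70 in male and −0.95 in female nectaries.

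Values of the earlier and the later timepoint place these genes in the course of nectary development. They share libraries with the comparison above and are given side by side only, as means ± SD of 3 libraries at −24, 0 and +9 hr and of 2 at −15 hr. Beta-amylase 1-like (XM_008440214.1) averaged 932 ± 406 normalized reads in young buds (−24 hr), 87674 ± 30206 in closed buds (−15 hr), 357730 ± 40157 in open flowers (0 hr) and 19928 ± 26602 in closed flowers (+9 hr). In the same order the NEC1-like gene (XM_008443590.1) averaged 174 ± 42.7, 240771 ± 73218, 308813 ± 44496 and 8061 ± 12822. Both genes were low before −15 hr and had a wide spread at +9 hr. CWINV4 (XM_008446238.1) averaged 669 ± 292, 37978 ± 34508, 838 ± 441 and 59 ± 7.94. GWD (XM_008447957.1) averaged 39237 ± 22304, 230056 ± 7551, 22163 ± 6812 and 3530 ± 3202. These genes thus had their highest mean at −15 hr. PIP1-4 (XM_008465000.1) averaged 818 ± 253, 104 ± 16.3, 77159 ± 23122 and 10164 ± 7816, and GGP1 (XM_008449496.1) 1285 ± 155, 1676 ± 84.1, 191782 ± 37243 and 13115 ± 17342, with the highest mean of both at 0 hr.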

How the data were processed

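Hand-dissected nectaries gave total RNA for TruSeq RNA libraries, read as 50-bp paired-end reads on a HiSeq 2500. The authors assembled transcripts with Trinity, matched contigs to melon genes with blastn (E-value cutoff 1e-05), normalized counts by the upper quartile and summed them per melon gene. The deposited values are therefore scores, normalized and rounded numbers of reads that are not counts, and near-identical genes may share them. Columns of the authors' own means, ratios and p-values were not used, and no genome build applies.

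All 23 libraries were fitted with limma 3.58.1 (R 4.3.3) on log2(value + 1), with a separate mean for each combination of sex and stage, variances moderated toward a trend and 19.6 degrees of freedom. Genes needed a value of 10 in 2 libraries, which removed 0 of 8861, and were called at a Benjamini-Hochberg adjusted p under 0.05 and at least 2-fold. The difference between the sexes was the contrast of both changes. The planned count model was not used because the values are not counts. With 3 libraries against 2, an exact permutation test cannot go below 0.2 (two-sided), so single genes rest on the pooled fit.

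Gene lists came from words of the melon descriptions, and the members and lists were chosen with earlier results of these data known. Named genes were drawn from the 12 largest called changes each way, the 10 most abundant or most changed in reads, the largest changes and the most abundant member of each list, all members of lists up to 8, and the genes the study names, and not every gene of these classes is described. The text names 43 further genes, and beside them some paralogs of proton pumps and sugar carriers, chosen after their values were seen. Alternatives were another scaling, pseudocount, filter, fits of 5 or 11 libraries, no trend, a replicate block and each library left out.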

Additional observations from a re-analysis of the deposited data

Results flagged for a closer look

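The change from −15 to 0 hr of the uncharacterized gene LOC103501490 (XM_008465077.1) differed between female and male nectaries, by −6.65 on the log2 scale (SE 1.00, adjusted p = 0.0166 by limma). It stood out because this was the only gene for which the test of the difference itself passed after adjustment. The gene had 398 and 952 normalized reads in the female libraries at −15 hr and 5 to 19 in the 3 male libraries, and at 0 hr the sexes overlapped, the female libraries spanning 85 to 778 and the male libraries 508 to 710. The difference did not reach the adjusted limit with a replicate block by description number, where 0 genes were called.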

How the results depend on the processing

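The counts of genes called higher and lower stayed within 1.5 times the reported counts under all 14 alternatives fitted, and those of genes without overlap under the 7 for which they were recomputed. With a library left out in turn, 1639 to 1789 genes were called higher and 2412 to 2761 lower, and the median log2 fold change was −0.319 to −0.286. That median was 0.0117 with the median-of-ratios scaling. The count of genes that differed between the sexes was 1 to 21 with a library left out and 0 with a replicate block by description number. The second −15 hr library carries different numbers in its title and description, and no label says that a number marks a shared batch. The replicate block gave 1811 genes higher and 2765 lower by description number and 1796 and 2724 by title number. Deviations from the group means correlated at 0.138 and 0.192 between libraries with the same description number and at 0.138 and −0.00619 between those with the same title number. With 2 such libraries at −15 hr, whose deviations mirror each other, the libraries were not treated as paired.

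Of 142 genes given values and followed through the alternatives, 114 of 130 called kept their call under every alternative. A call was gained by 3 uncalled genes, SHI RELATED SEQUENCE 1 with the 5 or the 11 female libraries fitted alone (−1.08), PHS2 with the 5 libraries (−1.78) and the chlorophyll a-b binding protein without replicate 2 at −15 hr. Directions turned for 3 uncalled genes. SPS2 ranged from −0.23 to 0.299 with a library left out, and the chlorophyll a-b binding protein (XM_008463862.1) from −1.49 to 4.01. PIP2-5 changed by 0.19 with the median-of-ratios scaling and by 0.0193 with the replicate block by description number. The cause of these turns was not tested. Where genes had to reach 100 in 2 of the 5 libraries, 7 ethylene, 6 homeobox and 5 MYB genes were called higher and 8 ribosome biogenesis and 14 pentatricopeptide repeat genes lower, with fewer genes tested, and the xylem list gave no median. The fits of 5 and of 11 libraries hold no male libraries and give no difference between the sexes. A count model on recovered whole reads was not run, because 1 of the −15 hr libraries showed no step of 1 read. Read depth is unknown, so no limit for values of 0 is given.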

Other observations

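Genes with next-lowest adjusted p for a difference between the sexes, 0.0875 by limma and so not called, included fluG (XM_008464281.1) and the ligase ATL6 (XM_008456685.1). For fluG, female nectaries had 4966 and 6861 normalized reads at −15 hr and 2038, 2251 and 137 at 0 hr, and male nectaries had 401, 365 and 618 at −15 hr and 1859, 2470 and 3603 at 0 hr. For ATL6, an E3 ubiquitin ligase, the values were 0 and 4 at −15 hr and 42, 42 and 62 at 0 hr in female nectaries, and 7, 16 and 45 followed by 17, 9 and 10 in male nectaries.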
